A study of Mus musculus with 12 samples.

Results

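AXL KO mouse mammary tumour cells kept in 21% oxygen were compared with WT cells kept in 1% oxygen. The aim was to see how far AXL KO cells at full oxygen resembled hypoxic WT cells. The comparison took 6 of the series' 12 RNA-seq libraries, chosen by their titles. These were 3 of AXL KO normoxia (Axl knocked out, 21% oxygen) and 3 of WT hypoxia (Axl intact, 1% oxygen), and 3 libraries of WT normoxia (Axl intact, 21% oxygen) were the common reference. All cells were MMTV-NIC, a mouse breast cancer model in which the mammary tumour virus promoter drives an activated Neu (ErbB2) receptor together with Cre. The groups compared directly differ in both genotype and oxygen, which that comparison cannot tell apart.

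In short, replication, mitosis and repair genes stood far below WT normoxia in both groups, and the groups were nearer to each other there than to WT normoxia. The genes of the HIF lists did not move as a block. Most glycolytic genes of AXL KO normoxia lay between WT normoxia and WT hypoxia. The HIF lists held targets together with subunits and sensors of the pathway. Of their 91 genes tested, 14, among them Bnip3, Pdk1, Gpi1 and Hk2, were in AXL KO normoxia within 2-fold of WT hypoxia. That share (15.4%) was below that of all genes (25.3%). The collagen-modifying and oxygen-sensing genes split, with Lox, Plod2 and Epas1 higher in AXL KO normoxia than in either WT group and Loxl4, P4ha2, Egln1 and Hif1a lower than in WT hypoxia. G1 regulators, p53 targets and amino-acid response genes separated the groups.

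The titles were used for genotype because the genotype tag tracks oxygen and thereby contradicts the title in 6 of the 12 samples. These are the WT hypoxia and AXL KO normoxia samples, all 6 of the direct comparison. Axl counts, given below, went with the titles. The labels state neither how long hypoxia lasted, nor how many knockout clones were used, nor where the replicates came from. Loss of Axl and other differences between the knockout and WT cells therefore cannot be told apart. No label says whether replicates came from separate cultures. The p-values therefore describe the spread among these libraries, part or all of which may be technical.

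Hypoxia-inducible factors (HIF) are made of an oxygen-sensitive alpha subunit (HIF-1alpha or HIF-2alpha) and the stable partner ARNT. In oxygen the EGLN enzymes hydroxylate the alpha subunit and VHL marks it for destruction. In hypoxia the factor accumulates and switches on genes of glucose uptake, glycolysis, mitophagy, matrix modification and blood vessel growth. AXL belongs to the TAM receptor tyrosine kinases and is activated by its ligand GAS6. Cell division depends on E2F factors, which switch on replication genes when G1 cyclins and their kinases inactivate the retinoblastoma proteins, and on a later programme of mitotic genes.

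Gene totals ran from 45297267 to 58775422 counts over the 9 libraries. The 3 WT hypoxia libraries stood apart from each other. The biological coefficient of variation in WT hypoxia was 0.397, compared with 0.0582 in WT normoxia and 0.0895 in AXL KO normoxia. Chi-square per degree of freedom between replicates was 104 to 350 in WT hypoxia, 6.55 to 10.4 in WT normoxia and 19.3 to 33.7 in AXL KO normoxia. Every count of called genes below was therefore also taken with WT hypoxia library 1 alone, and that count is given where it differed by over 1.5 times. That fit takes its spread from the other group alone, so its counts leave out the spread of WT hypoxia. Library 1 also stood farthest from the others, with chi-square values of 350 and 199 against 104 between libraries 2 and 3. Of the markers of other cell types, Ptprc, Cd3e, Itgam, Adgre1, Thy1, Lum and Tie1 had at most 23 counts summed over any group. The leukocyte markers that passed the filter on low counts (3 of 8) summed to 11.5 to 13.2 CPM in WT normoxia, 15.8 to 159 in WT hypoxia and 62.0 to 88.9 in AXL KO normoxia. Csf1r made up the high value of WT hypoxia, with 245, 6199 and 1978 counts, and Cd68 the level of AXL KO normoxia. The fibroblast markers that passed (3 of 6) summed to 68.1 to 75.3, 60.2 to 87.1 and 174 to 189 CPM in the same order, with Pdgfrb and Dcn higher in AXL KO normoxia. The endothelial (3 of 7) and adipocyte (2 of 6) markers that passed summed to at most 4.52 and 43.7 CPM in any library. The part of other cell types in the results was not tested. In bulk RNA, fewer cells of a type and less RNA per cell cannot be told apart.

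Of 16388 genes tested, 9702 differed between AXL KO normoxia and WT hypoxia by edgeR's quasi-likelihood test (Benjamini-Hochberg adjusted p below 0.05), which is what is meant by a called gene throughout. AXL KO normoxia was higher in 4753 of them (29.0% of genes tested) and lower in 4949 (30.2%). The 95% interval of the log2 difference lay wholly between -1 and 1, here termed within 2-fold, for 4145 genes (25.3%). The libraries of the 2 groups did not overlap at 11407 genes (69.6%). Against WT normoxia, 3718 genes (22.7%) were higher and 3915 (23.9%) lower in WT hypoxia, and 6241 (38.1%) were higher and 6536 (39.9%) lower in AXL KO normoxia. The comparisons with WT normoxia share its 3 libraries, so their values are set side by side and not correlated. The 7633 genes called in WT hypoxia were 4895, 4825 and 4797 without WT normoxia library 1, 2 or 3, and 12177 with WT hypoxia library 1 alone. Scaled by library size alone, the splits became 2584 higher and 5559 lower in WT hypoxia, and 4746 and 8218 in AXL KO normoxia. That scaling shifted the median of all genes from -0.03 to -0.34 and from -0.05 to -0.29 on the log2 scale. Each list below is read against these shares. Higher and lower shares were 28.6% and 21.4% for YAP targets, 40% and 20% for ERBB genes and 46.7% and 6.67% for MHC class I genes, which are given by count below.

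Over all genes tested, the root mean square difference in log2 CPM between a WT hypoxia and an AXL KO normoxia library averaged 2.21. It was 1.44 between WT normoxia and WT hypoxia, 1.93 between WT normoxia and AXL KO normoxia, and 0.89 among the WT hypoxia libraries themselves. Taken over all genes, AXL KO normoxia was thus farther from WT hypoxia than either was from WT normoxia. Pooled, the 91 genes of all HIF lists had the same order, 2.77 apart against 2.54 (WT hypoxia) and 2.5 (AXL KO normoxia) from WT normoxia. So did collagen modification (4.97 against 2.47 and 4.74), HIF feedback and sensors (2.52 against 2.28 and 1.94) and G1 control (3.93 against 1.69 and 3.55). Further lists with this order included HIF mitochondrial adaptation (2.37 against 2.26 and 2.35), epithelial genes (2.65 against 1.27 and 2.23) and cytokines (3.96 against 2.43 and 2.89). Some lists did not share it. For 41 DNA replication genes the groups lay 1.04 apart while they were 2.10 and 2.31 from WT normoxia, and for 34 mitosis genes 0.90 apart against 2.34 and 2.06. Taken library by library, WT hypoxia was 1.01, 1.18 and 0.94 from AXL KO normoxia at the replication genes and 0.86, 1.03 and 0.81 at the mitosis genes. For 21 glycolysis genes the distance between the groups was 1.52, as large as that of AXL KO normoxia from WT normoxia (1.52), and WT hypoxia was 2.76 from WT normoxia. Secreted and acid-handling HIF targets did not share the order either, 2.82 apart against 3.14 and 1.79. Nor did HIF gene regulation (1.69 against 2.33 and 1.56) and glycogen (3.20 against 1.75 and 3.26). Collagen modification had the largest distance between the groups of the HIF lists. The plot of list levels gives each list's median by library.

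**Figure D1:**
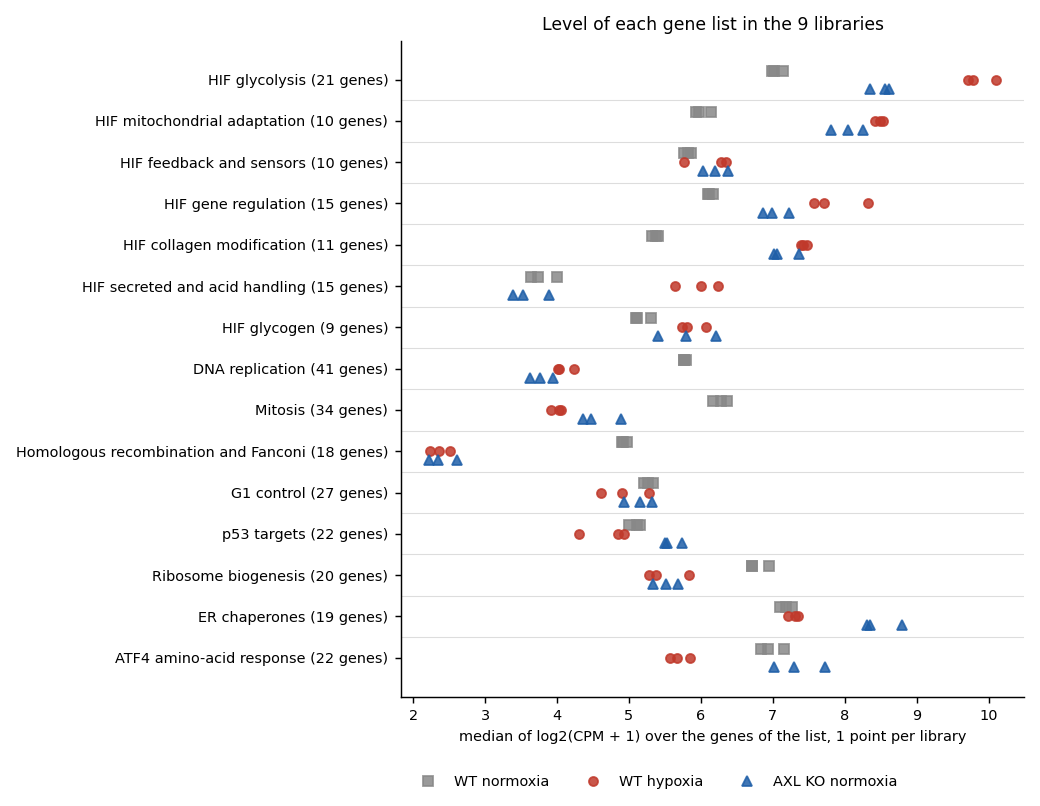
Median of log2(CPM + 1) over the genes of each list (x axis), 1 point per library, for WT normoxia (grey squares), WT hypoxia (red circles) and AXL KO normoxia (blue triangles). In the replication, mitosis and repair lists the red and blue points lie near each other, left of the grey ones. Of these lists they overlap only in repair, as blue lies left of red in replication and right of it in mitosis. In the glycolysis list the blue points lie between the other groups.

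Axl (ENSMUSG00000002602, chromosome 7, 25757273 to 25788705, GRCm38) checks the labels. It stood at 954, 936 and 1044 CPM in WT normoxia, at 541, 478 and 627 CPM in WT hypoxia and at 3.05, 3.4 and 3.62 CPM in AXL KO normoxia. Every AXL KO library was below every WT library. The log2 difference between AXL KO normoxia and WT hypoxia was -7.35 ± 0.19, adjusted p = 2.19e-06 (here and below the value after ± is the standard error and the p comes from edgeR). Axl itself fell in WT hypoxia (log2 fold change -0.83 ± 0.13, adjusted p = 0.00272). Among its relatives, the receptor gene Mertk stood at 11.3, 13 and 11.8 CPM in WT normoxia, 84, 64.3 and 50.01 in WT hypoxia and 57.4, 58 and 69.6 in AXL KO normoxia. The latter groups overlapped and lay within 2-fold (-0.10 ± 0.21, interval -0.59 to 0.39), both above WT normoxia. The third receptor gene, Tyro3, was also within 2-fold (0.23 ± 0.19). The ligand gene Gas6 had no count in WT hypoxia and stood at 110.1, 118 and 148 CPM in AXL KO normoxia, at least 5389.8-fold higher with a floor of 3 counts over the group (floors cover counting error only).

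The HIF lists held 98 genes, of which 91 passed the filter on low counts. They include subunits and sensors of the HIF pathway as well as its targets. Against WT normoxia, 66 of the 91 rose and 6 fell in WT hypoxia (median log2 fold change 2.02), and 72 rose and 8 fell in AXL KO normoxia (median 1.01). Between the groups, AXL KO normoxia was higher at 20 of the 91 genes, lower at 52 and not called at 19, with a median difference of -0.82 against -0.05 over all genes. Lower members were 57.1% of the lists against 30.2% of all genes, and higher members 22% against 29.0%. The intervals of 14 genes (15.4%) lay within 2-fold, against 25.3% of all genes. The last count was 8, 6 and 8 without AXL KO normoxia library 1, 2 or 3, and 25 of 92 with WT hypoxia library 1 alone. The plot of the HIF lists against WT normoxia sets both groups side by side gene by gene.

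**Figure D2:**
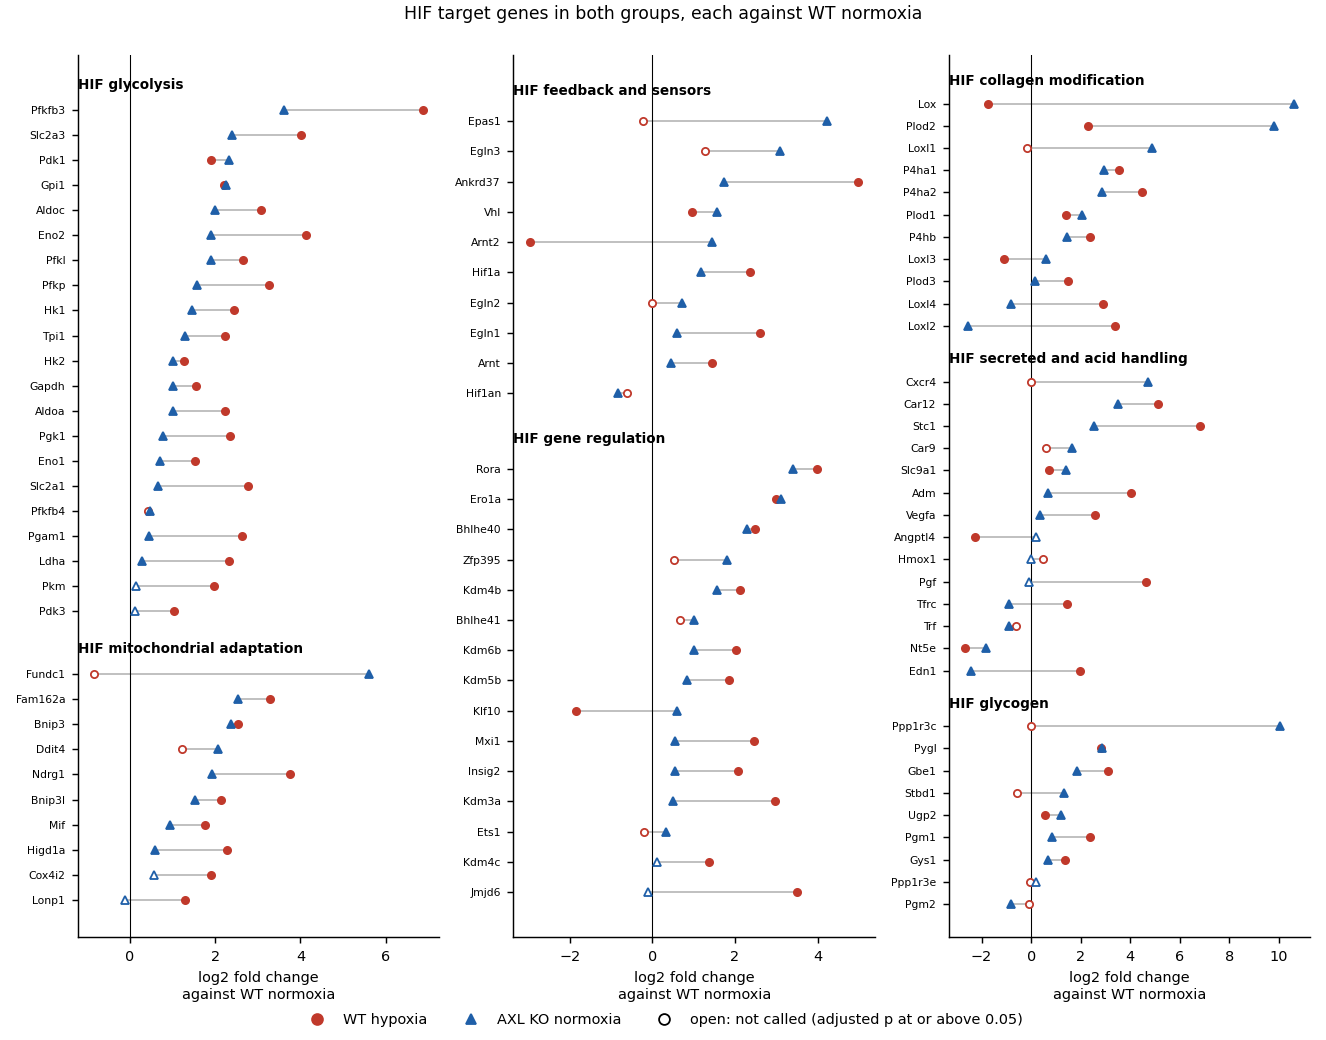
Log2 fold change against WT normoxia (x axis) of genes tested in the HIF lists, in WT hypoxia (red circles) and AXL KO normoxia (blue triangles). Open symbols did not pass adjusted p under 0.05. Genes with no count in 1 group are drawn at the bound that 3 counts allow. Most glycolysis genes lie right of 0 in both groups with the blue triangle nearer to 0.

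Glycolysis was the most uniform HIF list. Of 21 genes tested, 20 rose in WT hypoxia (median 2.33) and 19 in AXL KO normoxia (median 1.01), and none fell in either. AXL KO normoxia was lower than WT hypoxia at 17 (81.0%, against 30.2% of all genes) and higher at none (against 29.0%). Pfkfb3, whose product makes the allosteric activator of phosphofructokinase, showed the widest gap. It stood at 7.22, 6.67 and 7.78 CPM in WT normoxia, 897, 955 and 691 in WT hypoxia and 83.6, 76.1 and 106 in AXL KO normoxia. No libraries overlapped, and AXL KO normoxia held the middle, -3.26 ± 0.20, adjusted p = 2.64e-05 from WT hypoxia. The phosphoglycerate kinase gene Pgk1 followed the same order, at 237, 246 and 267 CPM, 1428, 1231 and 1147 CPM and 363, 441 and 475 CPM, with a difference of -1.57 ± 0.16, adjusted p = 0.000197. The glucose transporter gene Slc2a1 rose by 2.76 ± 0.15 in WT hypoxia and by 0.66 ± 0.07 in AXL KO normoxia. The last steps of the pathway hardly left the normoxic level in AXL KO normoxia. Ldha (lactate dehydrogenase A) rose by 2.33 ± 0.13 in WT hypoxia and by 0.28 ± 0.10 in AXL KO normoxia, and Pkm (pyruvate kinase) was at 1.96 ± 0.12 and 0.13 ± 0.09, adjusted p = 0.212, the latter not called. The small rise of Ldha lost its call without WT normoxia library 1 or 2 or AXL KO normoxia library 2 or 3.

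In contrast, 5 of the 21 genes (23.8%, against 25.3% of all genes) lay within 2-fold of WT hypoxia. This count ran from 3 to 6 when 1 library was left out. Gpi1 (glucose-6-phosphate isomerase) was at 385, 416 and 427 CPM in WT normoxia, 2623, 1527 and 1481 in WT hypoxia and 1617, 1965 and 2252 in AXL KO normoxia. Its high groups overlapped and differed by 0.05 ± 0.25 (interval -0.54 to 0.64). Pdk1, the kinase gene that keeps pyruvate out of the mitochondria, was at 33.1, 31.4 and 40.7 CPM, 149.9, 121 and 119 CPM and 143, 169 and 212 CPM in the same order. Its difference of 0.42 ± 0.18, adjusted p = 0.081 was not called and its interval ran from -0.01 to 0.85. The hexokinase gene Hk2 rose by 1.28 ± 0.14 and 1.01 ± 0.08, and its difference lay within 2-fold (interval -0.54 to 0.01), although its WT hypoxia libraries were all above those of AXL KO normoxia. Between the groups, Pdk1 and Hk2 each gained a call under 4 of 18 alternatives. Hk1, by contrast, was -1.01 ± 0.17 lower in AXL KO normoxia. The count of 17 lower genes ran from 15 to 17 when 1 library was left out and was 18 with WT hypoxia library 1 alone. With that library alone, and also without it, 1 gene was higher. Gapdh (-0.54 ± 0.14) lost its call without AXL KO normoxia library 1.

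Promoter sequences were taken from RefSeq (GRCm38.p6), 250 bases before to 50 after each start. HIF binds a core of ACGTG or GCGTG, which was searched on both strands and which overlaps the E-box CACGTG. At least 1 core was found in 75.6% of the 90 windows of the HIF lists (68 of 91 genes matched), against 43.8% of all 32851 windows. The share was also high in the windows of the DNA replication list (64.9%) and the mitosis list (72.4%), whose genes fell. The stretches below, 80 bases each, belong to a gene at the hypoxic level in both groups (Bnip3), 2 that AXL KO normoxia raised only in part (Pgk1, Pfkfb3) and 1 that it raised above WT hypoxia (Egln3). They are read 5′ to 3′ on the gene's strand, with the cores on either strand in capitals. The Bnip3 stretch (chr7:138909536-138909615, minus strand) holds 4 matches, that of Pgk1 (chrX:106186922-106187001, plus strand) 2, that of Pfkfb3 (chr2:11502136-11502215, minus strand) 3 and that of Egln3 (chr12:54204045-54204124, minus strand) 1. In the Bnip3 and Pfkfb3 stretches CACGTG holds a core on each strand and counts as 2 overlapping matches. A match is a description of these letters, not a binding site. Stretches were printed only where a match was present, so its presence in all 3 patterns is no result. The share of matches was not compared between the patterns.
Bnip3: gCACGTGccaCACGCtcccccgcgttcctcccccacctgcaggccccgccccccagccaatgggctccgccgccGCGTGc
Pgk1: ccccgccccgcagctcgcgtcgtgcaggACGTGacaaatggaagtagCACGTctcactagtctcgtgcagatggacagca
Pfkfb3: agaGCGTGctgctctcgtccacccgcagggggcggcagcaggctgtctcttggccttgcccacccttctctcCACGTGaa
Egln3: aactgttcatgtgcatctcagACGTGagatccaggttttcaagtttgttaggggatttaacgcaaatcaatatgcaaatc

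Among 10 genes of mitochondrial adaptation, 8 rose in each group. AXL KO normoxia was lower than WT hypoxia at 7 (70%, against 30.2% of all genes) and higher at 1 (10%, against 29.0%). Bnip3, which targets mitochondria for mitophagy, stood at 46.4, 47.2 and 53.2 CPM in WT normoxia, 291, 241 and 323 in WT hypoxia and 196, 255 and 310.3 in AXL KO normoxia. Both groups were well above WT normoxia and overlapped each other, with a difference of -0.17 ± 0.20, adjusted p = 0.486 (interval -0.64 to 0.30). Its relative Bnip3l was called lower but within 2-fold (-0.61 ± 0.15), a call lost without AXL KO normoxia library 1. The stress gene Ndrg1 differed by -1.82 ± 0.31 and the respiratory-supercomplex factor Higd1a by -1.68 ± 0.18, both between the 2 other levels. Lonp1, the mitochondrial protease that exchanges cytochrome oxidase subunits, rose in WT hypoxia (1.29 ± 0.10) and stood at -0.13 ± 0.06, adjusted p = 0.0862 in AXL KO normoxia, not called. Fundc1, another mitophagy receptor gene, was 0.979, 1.37 and 1.04 CPM, 0.399, 0.542 and 0.947 CPM and 53.3, 53.5 and 56.8 CPM and rose in AXL KO normoxia only by the tests run (5.60 ± 0.11, adjusted p = 4.14e-14, against -0.84 ± 0.39, adjusted p = 0.119 in WT hypoxia); the difference between the groups was 6.42 ± 0.34, adjusted p = 1.36e-05. The count of 7 lower genes was 4 without AXL KO normoxia library 1, and the 1 higher gene was joined by another with WT hypoxia library 1 alone.

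The sensors and subunits of the HIF pathway split. Hif1a was 125, 132 and 137 CPM in WT normoxia, 470.1, 762 and 783 in WT hypoxia and 308, 288 and 298 in AXL KO normoxia, a difference of -1.17 ± 0.21, adjusted p = 0.00235. Its groups did not overlap and AXL KO normoxia held the middle. Epas1, which encodes HIF-2alpha, gave a different picture. It was 3.66, 4.14 and 3.3 CPM, 3.56, 3.23 and 2.69 CPM and 54.2, 68.3 and 84.8 CPM, so that it was low in both WT groups and high in every AXL KO library (4.45 ± 0.24, adjusted p = 1.56e-05). The hydroxylase gene Egln1 stood at 118, 130.4 and 136 CPM in WT normoxia, 709, 821 and 815 in WT hypoxia and 151, 195 and 236 in AXL KO normoxia, and differed by -2.01 ± 0.19, adjusted p = 0.000147. Egln3, a HIF-induced hydroxylase gene, stood at 62.4, 72.2 and 71.8, 322, 57.7 and 119 and 437, 626 and 703 CPM in that order. It was higher in every AXL KO normoxia library than in any WT hypoxia library, where library 1 was far above libraries 2 and 3 (1.82 ± 0.57, adjusted p = 0.0277).

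Of 10 genes in that list, AXL KO normoxia was higher at 5 (50%, against 29.0% of all genes) and lower at 4 (40%, against 30.2%). Egln2 was 0.73 ± 0.14 higher and Arnt2 4.41 ± 0.50 higher, while Arnt was -0.99 ± 0.21 lower. Ankrd37, a small HIF-induced gene, stood at 4.01, 4.6 and 4.58 CPM in WT normoxia, 136, 164 and 119 in WT hypoxia and 12.5, 15.8 and 15.9 in AXL KO normoxia, the knockout again in the middle. Hif1an, the asparagine hydroxylase gene that dampens HIF, was within 2-fold (-0.21 ± 0.25). Vhl was 0.61 ± 0.22 higher (adjusted p = 0.0478). The count of 5 higher genes was 3 without AXL KO normoxia library 2 or 3: the call of Egln3 was lost without either and without WT hypoxia library 3, and that of Vhl without any of the AXL KO normoxia libraries.

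**Figure D3:**
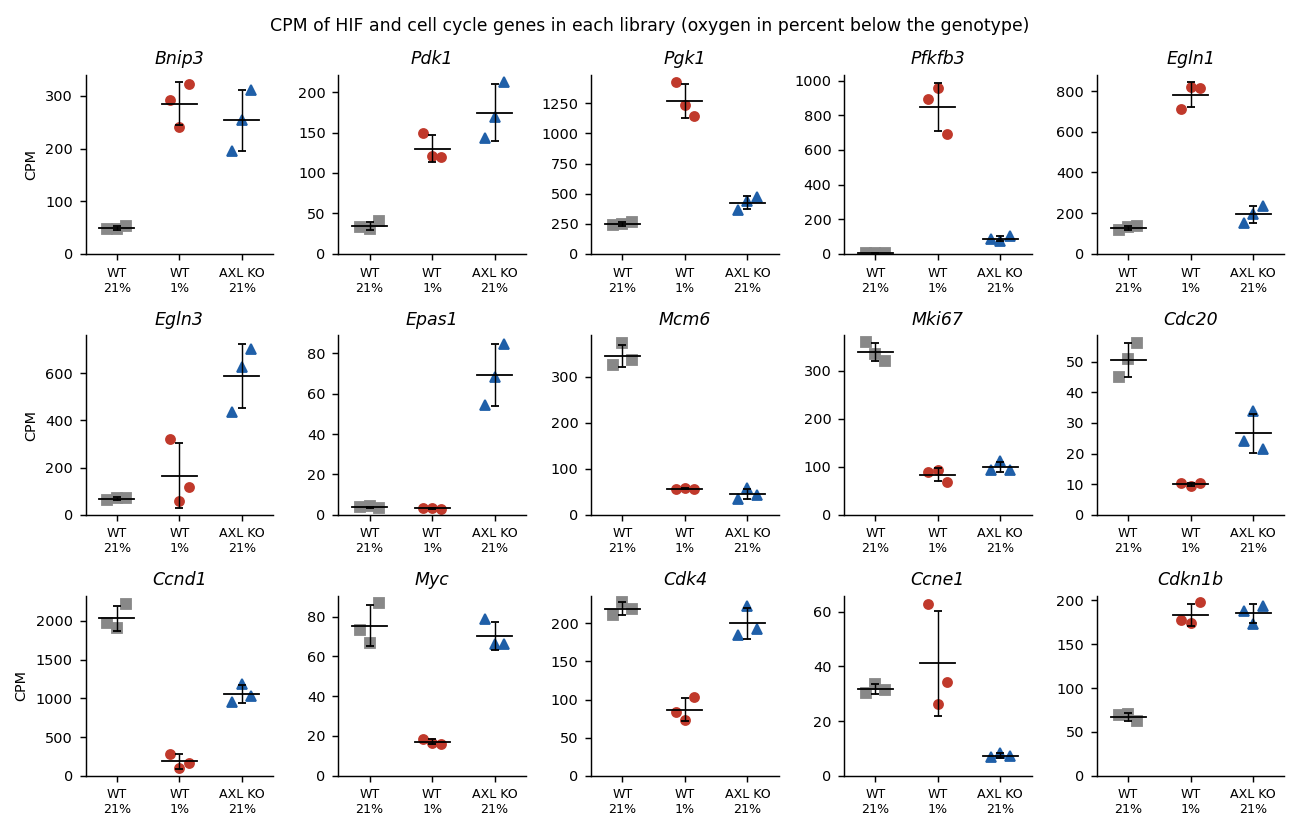
CPM (y axis, from 0) of 15 HIF and cell cycle genes in each library of WT normoxia (grey squares), WT hypoxia (red circles) and AXL KO normoxia (blue triangles); lines mark the mean and bars the standard deviation of 3 libraries. Bnip3, Pdk1, Mcm6, Mki67 and Cdkn1b overlap in the last 2 groups, while Pfkfb3, Egln1, Epas1, Myc, Cdk4 and Ccne1 separate them.

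Transcription and chromatin regulators among the HIF targets rose in 11 of 15 cases in WT hypoxia and in 13 of 15 in AXL KO normoxia, where most rose less. Of the 15, 8 (53.3%, against 30.2% of all genes) were lower and 2 (13.3%, against 29.0%) higher in AXL KO normoxia than in WT hypoxia. Kdm3a, a histone H3 lysine demethylase gene, was 70.7, 68.1 and 67.3 CPM in WT normoxia, 508, 689.5 and 403 in WT hypoxia and 96.9, 93.4 and 101 in AXL KO normoxia. It was thus near its normoxic level in the knockout (-2.46 ± 0.21, adjusted p = 9.66e-05 against WT hypoxia). Jmjd6, a dioxygenase gene, rose by 3.50 ± 0.23 in WT hypoxia and stood at -0.11 ± 0.07, adjusted p = 0.176 in AXL KO normoxia, not called. The MYC antagonist gene Mxi1 was -1.90 ± 0.18 lower. The circadian repressor gene Bhlhe40 was 51.1, 56.2 and 53.9 CPM, 499.6, 189 and 208 CPM and 243, 258 and 283 CPM. It was above WT normoxia in every library of both groups and did not differ between them by the test (-0.19 ± 0.36, adjusted p = 0.664, interval -1.04 to 0.65). The same held for Ero1a, which oxidises protein disulphides in the ER (0.14 ± 0.42, adjusted p = 0.796), and for the nuclear receptor gene Rora (-0.56 ± 0.22, adjusted p = 0.0626), whose intervals reached beyond 2-fold. Klf10 rose in AXL KO normoxia (0.60 ± 0.08) and fell in WT hypoxia (-1.85 ± 0.54), the latter call being lost without any WT normoxia library and without WT hypoxia library 2 or 3. The 2 higher genes became 6 without WT hypoxia library 1 and 1 without AXL KO normoxia library 2 or 3, and Kdm4b (-0.56 ± 0.14) lost its call without AXL KO normoxia library 1 or 2.

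Collagen modification held wide gaps in both directions: of 11 genes, 5 were higher and 5 lower in AXL KO normoxia (45.5% each, against 29.0% and 30.2% of all genes). The prolyl hydroxylase subunit genes P4ha1, P4ha2 and P4hb rose in both groups. P4ha2 was 19.7, 18.2 and 20.2 CPM, 433, 477 and 377 CPM and 129, 132 and 164 CPM (-1.60 ± 0.16, adjusted p = 0.000182), and P4ha1 did not pass the test (-0.61 ± 0.30, adjusted p = 0.118). Plod1, a lysyl hydroxylase gene, was slightly higher in AXL KO normoxia (0.64 ± 0.13). Plod2, the lysyl hydroxylase gene most tied to stable crosslinks, stood at 0.111, 0.0976 and 0.109 CPM in WT normoxia, 0.141, 1.01 and 0.462 in WT hypoxia and 74, 90.6 and 124 in AXL KO normoxia. All WT libraries were near 1 CPM or below, and the difference was 7.49 ± 0.61, adjusted p = 8.03e-05. Lox, the lysyl oxidase gene, was 0.259, 0.332 and 0.201 CPM, 0.0938, 0.0739 and 0.066 CPM and 349, 386 and 499 CPM, the same layout (12.32 ± 0.29, adjusted p = 1.91e-06). It fell in WT hypoxia (-1.72 ± 0.43) and rose in AXL KO normoxia (10.60 ± 0.21), and its relative Loxl1 rose in AXL KO normoxia (4.88 ± 0.13). The fall of Lox in WT hypoxia lost its call without WT normoxia library 1 or 2 and with WT hypoxia library 1 alone. Loxl4 went the other way: it was 115, 111 and 133 CPM, 386, 1145 and 1130.3 CPM and 70.2, 57.1 and 78.4 CPM (-3.69 ± 0.43, adjusted p = 0.00038), highest in every WT hypoxia library.

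Secreted and acid-handling HIF targets had the lowest median difference of the 7 HIF lists (-1.63). In AXL KO normoxia 8 of 15 genes were lower and 4 higher (53.3% and 26.7%, against 30.2% and 29.0% of all genes). Vegfa, the main angiogenic growth factor gene, was 289, 292 and 284 CPM in WT normoxia, 2109, 1581 and 1445 in WT hypoxia and 369, 366 and 381 in AXL KO normoxia (-2.20 ± 0.17, adjusted p = 6.75e-05). The knockout libraries were thus a little above WT normoxia and far below WT hypoxia. Its relative Pgf rose in WT hypoxia (4.65 ± 0.53) and was not called in AXL KO normoxia (-0.10 ± 0.12, adjusted p = 0.456). The vasodilator peptide gene Adm differed by -3.34 ± 0.42 and Stc1 (stanniocalcin) by -4.25 ± 0.71. The membrane carbonic anhydrase gene Car12 was 0.72, 1.19 and 0.966 CPM, 36.6, 33.1 and 31.7 CPM and 9.55, 9.45 and 13.8 CPM, raised in both groups and between the 2 levels in AXL KO normoxia (-1.63 ± 0.21, adjusted p = 0.000554). Tfrc, the transferrin receptor gene, rose in WT hypoxia (1.46 ± 0.14) and fell in AXL KO normoxia (-0.89 ± 0.08). Cxcr4 had no count in either WT group and was at least 21.1-fold higher in AXL KO normoxia than in WT hypoxia. The median of this list against WT normoxia in AXL KO normoxia was 0.19 and turned to -0.05 with library size alone. The count of 4 higher genes was 2 without WT hypoxia library 3 or without any of the AXL KO normoxia libraries.

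Glycogen genes showed no common direction: 3 of 9 were higher and 3 lower (33.3% each, against 29.0% and 30.2% of all genes). Gbe1 (branching enzyme) rose in both groups and was -1.28 ± 0.23 lower in AXL KO normoxia, and Pgm1, which interconverts glucose phosphates, was -1.54 ± 0.14 lower. Pygl, the liver-type glycogen phosphorylase gene, was 1.81, 2.56 and 2.22 CPM, 22.7, 7.66 and 16.5 CPM and 11.1, 15.4 and 21.1 CPM. Its levels overlapped above WT normoxia (0.02 ± 0.41, interval -0.94 to 0.98). Within 2-fold were 2 genes, Pygl among them (22.2%, against 25.3% of all genes). They were 1 without WT hypoxia library 1, and 0 without WT hypoxia library 2 or any 1 AXL KO normoxia library. Ppp1r3c, which targets protein phosphatase 1 to glycogen, had no count in any WT library and stood at 14.9, 18.6 and 25.3 CPM in AXL KO normoxia, at least 842-fold higher than in WT hypoxia.

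DNA replication genes were low in both groups. Against WT normoxia, 38 of 41 fell and 1 rose in WT hypoxia (median -1.88), and 40 fell and none rose in AXL KO normoxia (median -2.23). Between the groups, AXL KO normoxia was higher at 5 (12.2%, against 29.0% of all genes) and lower at 12 (29.3%, near the 30.2% of all genes), and 13 of the 41 intervals (31.7%, against 25.3%) lay within 2-fold. Mcm2, a subunit of the replicative helicase, stood at 135, 143 and 141 CPM in WT normoxia, 25.8, 26.5 and 25 in WT hypoxia and 25.2, 39.7 and 29.2 in AXL KO normoxia. The low groups overlapped, 0.28 ± 0.20, adjusted p = 0.25 apart (interval -0.18 to 0.75). Mcm6 of the same complex was 326, 373 and 337 CPM, 55, 57.5 and 56.9 CPM and 34.2, 57.2 and 43.3 CPM, again overlapping (-0.33 ± 0.20, adjusted p = 0.189). Pole, the leading-strand polymerase gene, fell by -3.36 and -3.18 on the log2 scale and differed by 0.18 ± 0.24. Of the 6 helicase genes Mcm2 to Mcm7, Mcm7 was lower in AXL KO normoxia with every library left out in turn (-0.73 ± 0.15), while the calls of Mcm3 (-1.08 ± 0.29) and Mcm5 (-1.18 ± 0.31) were lost without AXL KO normoxia library 1 or 3 and with WT hypoxia library 1 alone.

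The groups were not equal at every replication gene. Rrm2, the inducible subunit of ribonucleotide reductase, was 115, 134 and 117 CPM, 7.27, 12.1 and 10.1 CPM and 24.5, 36.1 and 27.5 CPM, with every AXL KO normoxia library above every WT hypoxia library (1.58 ± 0.25, adjusted p = 0.0015). Chaf1b (chromatin assembly, 1.49 ± 0.23) and Pole2 (1.65 ± 0.24) were higher too. Gins3, a subunit of the helicase activator, was 23, 24.1 and 21.3 CPM, 30.9, 39.4 and 31.1 CPM and 4.41, 5.25 and 4.46 CPM. It rose in WT hypoxia and fell in AXL KO normoxia, a difference of -2.84 ± 0.19, adjusted p = 3.81e-05, although its rise lost the call without any WT normoxia library. Cdc45, its partner, was -1.22 ± 0.23 lower, the origin subunit gene Orc6 -1.58 ± 0.22 and the nuclease gene Dna2 -1.89 ± 0.29. The count of 12 lower genes was 8 without AXL KO normoxia library 1 or 3 and up to 16 without other libraries. With WT hypoxia library 1 alone, 9 genes were higher, 15 lower and 16 within 2-fold.

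All 34 mitosis genes fell in both groups (median -2.20 in WT hypoxia and -1.95 in AXL KO normoxia). Between the groups 11 (32.4%, against 29.0% of all genes) were higher and 5 (14.7%, against 30.2%) lower in AXL KO normoxia, and 13 (38.2%, against 25.3%) lay within 2-fold. The proliferation marker gene Mki67 was 359, 335 and 321 CPM in WT normoxia, 89.7, 92.6 and 68.2 in WT hypoxia and 92.4, 111 and 93.5 in AXL KO normoxia. Its low groups overlapped, 0.25 ± 0.17, adjusted p = 0.233 apart (interval -0.14 to 0.63). Foxm1, a transcription factor of mitotic genes, differed by -0.14 ± 0.27 and the mitotic kinase gene Aurka by -0.30 ± 0.21, both within 2-fold. Cdc20, an activator of the anaphase-promoting complex, was 44.9, 50.8 and 56.2 CPM, 10.4, 9.46 and 10.2 CPM and 24.3, 33.9 and 21.5 CPM. It fell less in AXL KO normoxia, where every library was above WT hypoxia (1.4 ± 0.21, adjusted p = 0.00126). Cyclin B1 (1.30) and cyclin B2 (1.11), the kinesin gene Kif11 (1.36), Nusap1 (1.49) and Cenpf (1.15) were also higher on the log2 scale. Lower were the checkpoint kinase gene Bub1 (-1.59 ± 0.23) and the kinetochore motor gene Cenpe (-1.30 ± 0.32). The count of 11 higher genes was 7 without AXL KO normoxia library 2, and the count of 5 lower genes was 3 without its library 1 or 3.

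Repair genes of homologous recombination and the Fanconi pathway followed. All 18 fell in both groups (medians -2.86 and -2.62). Between the groups 2 (11.1%, against 29.0% of all genes) were higher and 1 (5.56%, against 30.2%) lower in AXL KO normoxia. Within 2-fold were 7 (38.9%, against 25.3%). Brca1 was 53.8, 58.2 and 49.3 CPM, 6.96, 9.59 and 7.73 CPM and 6.55, 10.9 and 9.71 CPM, the low groups overlapping (0.16 ± 0.26, adjusted p = 0.618). Fancd2, which marks crosslink damage, differed by 0.25 ± 0.26. Xrcc3, of strand-exchange repair, was higher in AXL KO normoxia (2.5 ± 0.40, adjusted p = 0.00144) and Fanca lower (-1.26 ± 0.26, adjusted p = 0.0049). The 7 genes within 2-fold were 1 without AXL KO normoxia library 1, 3 without library 2 and 2 without library 3. The 2 higher genes became 5, and the 1 lower became 3, without WT hypoxia library 1. The 2 became 1 without WT hypoxia library 2 or AXL KO normoxia library 2 or 3, and 4 with WT hypoxia library 1 alone.

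**Figure D4:**
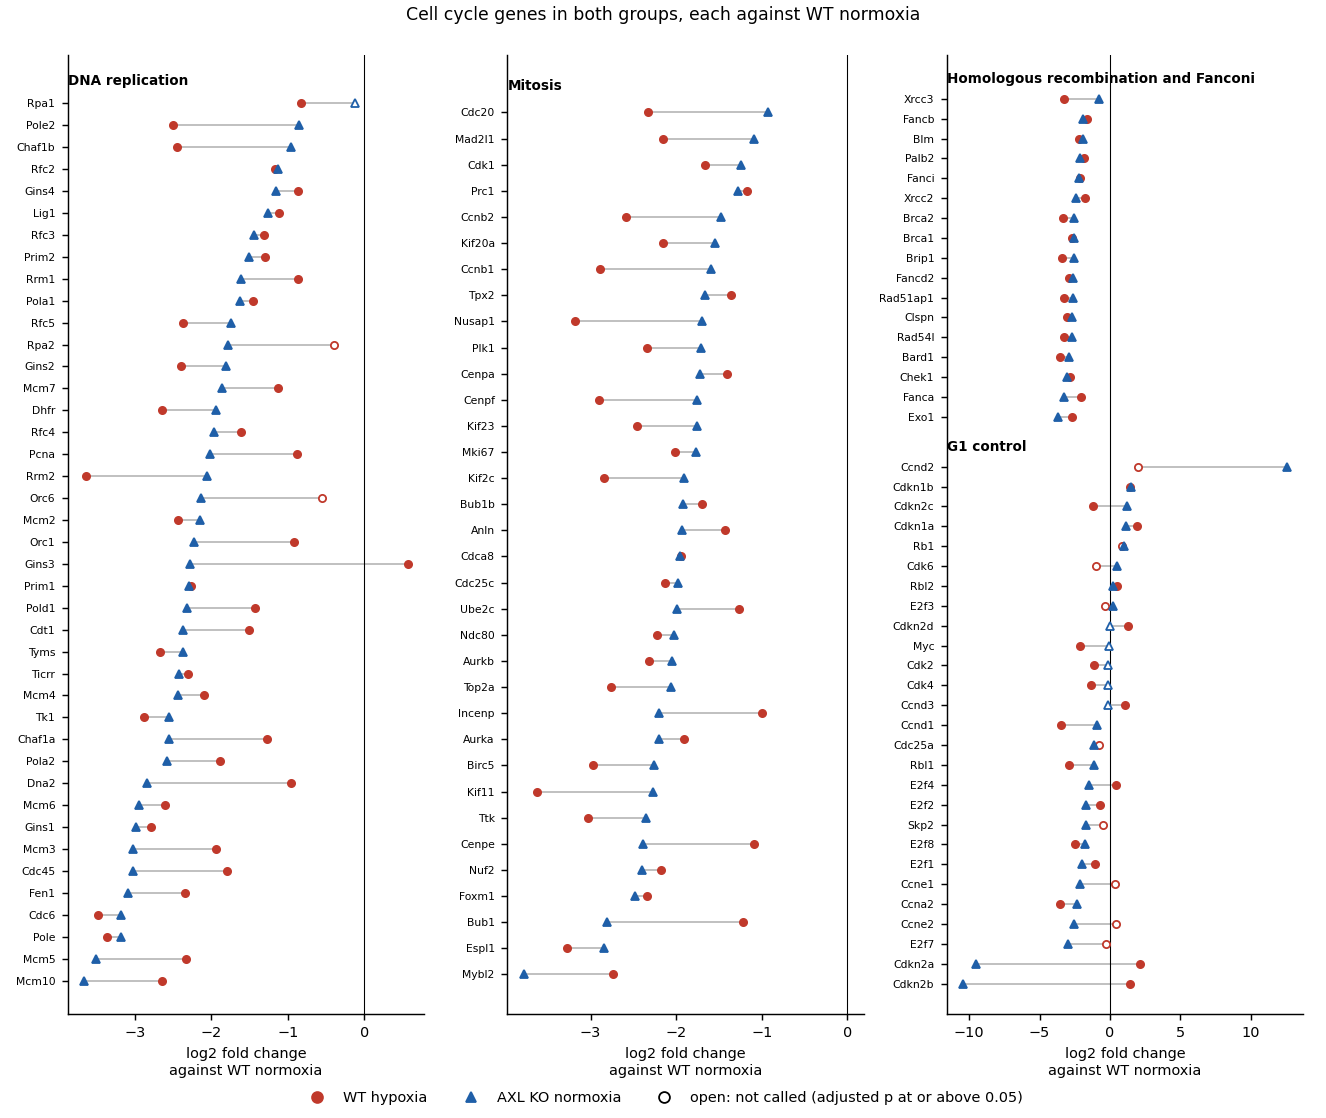
Log2 fold change against WT normoxia (x axis) of DNA replication, mitosis, repair and G1 genes tested, in WT hypoxia (red circles) and AXL KO normoxia (blue triangles); open symbols did not pass adjusted p under 0.05. Genes with no count in 1 group are drawn at the bound that 3 counts allow. Red and blue lie left of 0 in the first 3 lists, and on different sides of 0 at many G1 genes.

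The same RefSeq windows were searched on both strands for the E2F site (TTTGGCGC, TTTCCCGC, TTTCGCGC or TTTGCCGC), which marks replication genes, and for the cell cycle homology region (TTTGAA), which marks mitotic genes. An E2F site was in 35.1% of the 37 windows of the replication list (33 of 41 genes matched) and in 2.27% of all windows. The homology region was in 72.4% of the 29 windows of the mitosis list (28 of 34 genes matched) and in 17.9% of all windows. The stretches below show it for genes that fell in both groups. Mcm6 and Mki67 overlapped between them, and Cdc20 stayed higher in AXL KO normoxia. Capitals mark the E2F site in Mcm6 (chr1:128359741-128359820, minus strand) and the homology region in Mki67 (chr7:135716444-135716523, minus strand) and Cdc20 (chr4:118437344-118437423, minus strand), on either strand.
Mcm6: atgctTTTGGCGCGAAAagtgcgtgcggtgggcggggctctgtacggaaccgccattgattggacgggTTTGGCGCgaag
Mki67: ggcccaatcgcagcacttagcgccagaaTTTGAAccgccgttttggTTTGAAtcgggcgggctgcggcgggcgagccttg
Cdc20: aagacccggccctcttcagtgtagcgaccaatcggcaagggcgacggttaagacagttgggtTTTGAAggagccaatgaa

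G1 control genes differed in both directions. Of 27 tested, 9 (33.3%, near the 29.0% of all genes) were higher and 12 (44.4%, against 30.2%) lower in AXL KO normoxia. Within 2-fold were 3 (11.1%, against 25.3%), and 5 without WT hypoxia library 2. The cyclin D1 gene Ccnd1 was 1973, 1912 and 2213 CPM in WT normoxia, 284, 96.4 and 170.3 in WT hypoxia and 957, 1182 and 1026 in AXL KO normoxia. It fell in both, and the knockout libraries were well above the hypoxic ones (2.52 ± 0.37, adjusted p = 0.00104). Ccnd2, the cyclin D2 gene, had no count in WT normoxia and 1 in WT hypoxia, and stood at 119, 112 and 109.6 CPM in AXL KO normoxia. The ratio of summed counts to WT hypoxia was 14610, with a 95% counting interval of 2621 to 576900 that covers counting error only. Cdk4, the kinase gene that D cyclins activate, was 211, 228 and 219 CPM, 83, 73.3 and 104 CPM and 184, 223 and 193 CPM. It fell in WT hypoxia (-1.34 ± 0.15) and was not called in AXL KO normoxia (-0.13 ± 0.07, adjusted p = 0.113). Myc, a driver of growth and G1 entry, had the same layout at 73.2, 66.6 and 86.7 CPM, 18.4, 16.6 and 15.9 CPM and 78.6, 66.2 and 66.2 CPM, a difference of 2.05 ± 0.15, adjusted p = 5.47e-05. The E cyclin genes went the opposite way. Ccne1 was 30.3, 33.7 and 31.2 CPM, 62.8, 26.1 and 34.4 CPM and 6.66, 8.35 and 7.07 CPM, lower in every AXL KO normoxia library (-2.48 ± 0.34, adjusted p = 0.000787), and Ccne2 differed by -2.98 ± 0.24.

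Among the inhibitors of cyclin-dependent kinases, Cdkn1b (p27) stood at 68.8, 70.5 and 62.2 CPM in WT normoxia, 178, 174 and 198 in WT hypoxia and 188, 173 and 194 in AXL KO normoxia. It rose in both groups to overlapping levels (0.01 ± 0.12, interval -0.27 to 0.30). Cdkn1a (p21) rose in both and was -0.82 ± 0.13 lower in AXL KO normoxia. Cdkn2a was 12.1, 13 and 14.6 CPM and 35.2, 78 and 62.2 CPM in the WT groups, and Cdkn2b 23.4, 27 and 25.4 CPM and 59.8, 77.1 and 64.5 CPM. Neither had a count in AXL KO normoxia, which puts them at least 3197-fold and 3673-fold lower than in WT hypoxia. Cdkn2c (p18) was 2.38 ± 0.30 higher in AXL KO normoxia. E2f4, a repressive E2F gene, was -1.92 ± 0.13 lower and E2f1 -0.91 ± 0.22 lower. The retinoblastoma relative gene Rbl1 was 1.77 ± 0.26 higher, and Rb1 itself did not pass the test (0.20 ± 0.34, adjusted p = 0.626).

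Genes of the p53 list were mostly higher in AXL KO normoxia: 12 of 22 (54.5%, against 29.0% of all genes), with 4 lower (18.2%, against 30.2%). The median difference was 1.16 against -0.05 over all genes. The list did not rise as a whole in WT hypoxia (5 up, 8 down, median 0.02), and in AXL KO normoxia 14 rose and 6 fell. Fas, the death receptor gene, was 2.11, 2.97 and 2.59 CPM in WT normoxia, 2.88, 2.83 and 2.36 in WT hypoxia and 16.6, 18.7 and 18.8 in AXL KO normoxia. Both WT groups were low and overlapped, and the difference was 2.74 ± 0.20, adjusted p = 5.04e-05. Eda2r was 4.06 ± 0.45 higher, Gdf15, a secreted stress factor, 4.34 ± 0.36, Perp, of desmosomes and apoptosis, 2.14 ± 0.20, and the cyclin G1 gene Ccng1 1.71 ± 0.17. Trp53 itself was within 2-fold (0.27 ± 0.14). Mdm2, which limits p53, was -0.91 ± 0.17 lower, and the sestrin gene Sesn1 was 14.7, 15.2 and 14.3 CPM, 113, 92.6 and 107 CPM and 18.7, 20.9 and 25.3 CPM, lower in AXL KO normoxia (-2.27 ± 0.17, adjusted p = 5.77e-05).

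Ribosome biogenesis genes were also low in both groups. Of 20, 16 fell in WT hypoxia (median -1.07) and 20 in AXL KO normoxia (median -1.23). Between the groups 2 were higher and 5 lower (10% and 25%, against 29.0% and 30.2% of all genes), and 8 were within 2-fold (40%, against 25.3%). Without WT hypoxia library 2 the last count was 13, and with WT hypoxia library 1 alone it was 14 and 7 genes were higher. Nop56, a core protein of box C/D particles, was 177, 159 and 196 CPM, 71.1, 118 and 63.2 CPM and 43.1, 38.4 and 28.8 CPM (-1.19 ± 0.27, adjusted p = 0.00773). Pes1 was -0.82 ± 0.12 lower. The 2 higher genes were 0 without WT hypoxia library 3 or AXL KO normoxia library 1 or 2 and 1 without library 3, and the 5 lower were 2 without AXL KO normoxia library 2 or 3 and 3 without WT hypoxia library 2 or 3.

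Of 19 ER chaperone genes, 11 (57.9%, against 29.0% of all genes) were higher in AXL KO normoxia and none lower (1 lower without WT hypoxia library 1). Within 2-fold were 7 (36.8%, against 25.3%), and the median difference was 0.69. Sel1l, of ER-associated degradation, was 179.7, 179.6 and 169.7 CPM, 169.9, 155 and 172 CPM and 841, 624 and 686 CPM. Both WT groups shared a level and the knockout libraries were far above it (2.11 ± 0.15, adjusted p = 5.04e-05). Xbp1, whose spliced form drives the unfolded protein response, was 1.31 ± 0.13 higher and Herpud1 1.54 ± 0.18 higher. Against WT normoxia 16 rose in AXL KO normoxia, and 6 rose and none fell in WT hypoxia, a split that became 1 and 4 with library size alone.

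Genes of the ATF4 amino-acid response, which makes and imports amino acids, were higher in AXL KO normoxia at 15 of 22 and lower at 2 (68.2% and 9.09%, against 29.0% and 30.2% of all genes). The median difference was 1.30. In WT hypoxia 13 fell and 4 rose, and in AXL KO normoxia 7 fell and 11 rose. The proline synthesis gene Pycr1 was 24.8, 27.8 and 23.2 CPM in WT normoxia, 2.27, 1.26 and 3.08 in WT hypoxia and 80.9, 67.4 and 66.8 in AXL KO normoxia. WT hypoxia was lowest and AXL KO normoxia highest, 5.02 ± 0.35, adjusted p = 4.09e-05 apart. The leucine transporter gene Slc7a5 had the same order, at 403, 364 and 508 CPM, 97.1, 36.6 and 49.9 CPM and 1013, 851 and 741 CPM (3.83 ± 0.38, adjusted p = 0.000194). Shmt2, of mitochondrial serine use, fell in both and was 1.55 ± 0.19 higher in AXL KO normoxia. Nupr1, a stress-induced chromatin protein gene, was an exception, 100.5, 83.1 and 117 CPM, 880.4, 1506 and 966 CPM and 339, 292 and 269 CPM (-1.90 ± 0.23, adjusted p = 0.000463).

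**Figure D5:**
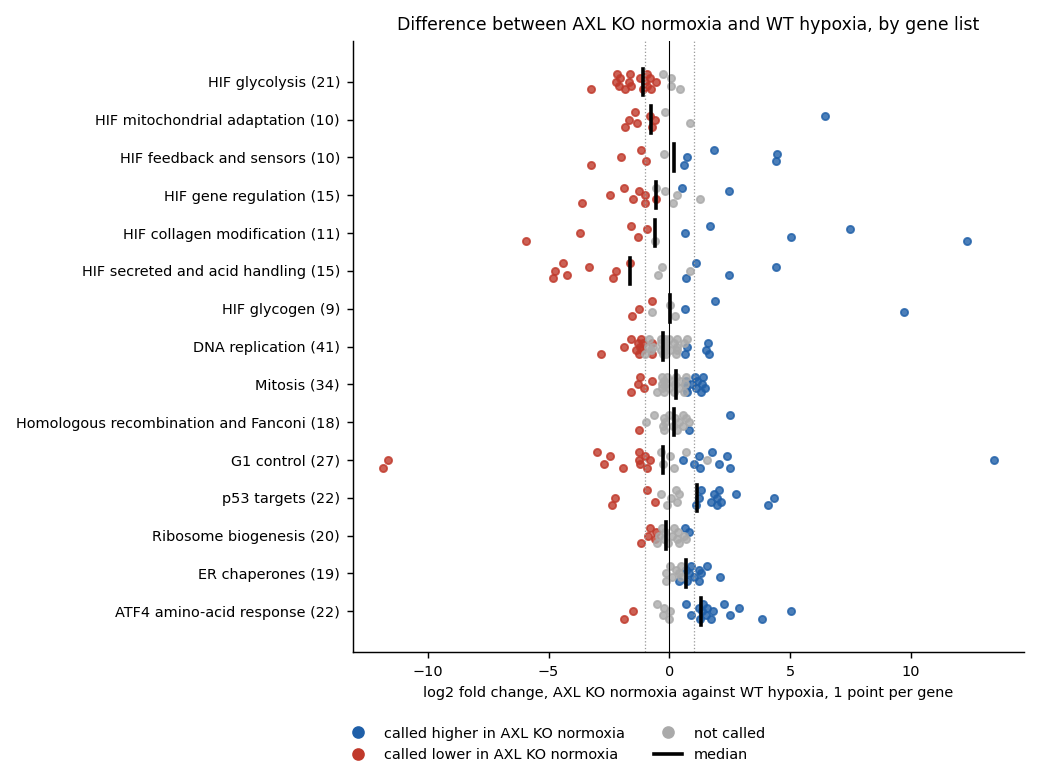
Log2 fold change of AXL KO normoxia against WT hypoxia (x axis), 1 point per gene, for 15 gene lists with their number of genes tested; blue was called higher, red called lower and grey not called at adjusted p under 0.05, and the bar is the median. Dotted lines mark 2-fold, and genes with no count in 1 group are drawn at the bound that 3 counts allow. Glycolysis lies left of 0, ER chaperones, p53 targets and the ATF4 response right of it, and the replication, mitosis and repair lists around 0.

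Nuclear genes of oxidative phosphorylation differed little in size: 26 of 30 (86.7%, against 25.3% of all genes) lay within 2-fold. Even so, 6 were called higher and 10 lower (20% and 33.3%, against 29.0% and 30.2%). The 6 were 2 without any AXL KO normoxia library and 3 without WT hypoxia library 3, and the 10 were 5 without any AXL KO normoxia library. The cytochrome oxidase subunit gene Cox4i1 was -0.84 ± 0.12 lower in AXL KO normoxia. Of 7 mitochondrially encoded genes tested, 4 (57.1%, against 29.0% of all genes) were higher in AXL KO normoxia and none lower (1 lower without WT hypoxia library 1). The cytochrome b gene mt-Cytb was 2393, 2284 and 1986 CPM, 769.5, 463 and 747 CPM and 2401, 2614 and 2532 CPM, low in every WT hypoxia library alone (1.93 ± 0.21, adjusted p = 0.000297). Cholesterol synthesis genes split, 10 of 23 higher and 6 lower (43.5% and 26.1%, against 29.0% and 30.2% of all genes), with 12 within 2-fold (52.2%, against 25.3%). Hmgcs1, at the head of the pathway, was 1.78 ± 0.15 higher and Lss, which closes the sterol ring, -0.94 ± 0.13 lower.

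Lineage genes differed in both directions. Of 17 epithelial genes, 3 (17.6%, against 29.0% of all genes) were higher and 7 (41.2%, against 30.2%) lower in AXL KO normoxia. The 7 lower included the desmosome gene Dsp. It was at 61, 63.9 and 59.1 CPM in WT normoxia and 496, 397 and 356 in WT hypoxia. In AXL KO normoxia it was at 7.35, 6.27 and 8.12 CPM. Dsp rose in WT hypoxia and fell in AXL KO normoxia (-5.84 ± 0.21, adjusted p = 4.66e-06). The tight junction gene Cldn4 (-4.54 ± 0.23), Epcam (-3.19 ± 0.38) and the E-cadherin gene Cdh1 (-2.47 ± 0.35) had the same signs. The rise of Cdh1 in WT hypoxia lost its call without WT normoxia library 1 or 3. The genes named are all from the lower side, and differences over the list ran from -5.84 to 2.22. The 3 higher genes became 7 without WT hypoxia library 1 and 1 without AXL KO normoxia library 2 or 3. Of 7 basal genes 4 (57.1%, against 30.2% of all genes) were lower and 2 (28.6%, near 29.0%) higher. The basal keratin gene Krt14 was 33.2, 35.2 and 35.5 CPM, 145, 49.9 and 61.1 CPM and 0.521, 0.79 and 0.669 CPM (-7.01 ± 0.53, adjusted p = 5.83e-05). The transcription factor gene Sox10 was -5.72 ± 0.32 lower, while Itgb4 was 3.68 ± 0.53 higher. Of 10 luminal genes 5 were higher and 3 lower (50% and 30%, against 29.0% and 30.2% of all genes). Among them were the milk genes Ltf (5.60 ± 0.34) and Csn3 (3.26 ± 0.36) and, lower, Muc1 (-4.38 ± 0.60).

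Mesenchymal genes did not move together: 6 of 16 were higher and 2 lower (37.5% and 12.5%, against 29.0% and 30.2% of all genes). Within 2-fold were 7 (43.8%, against 25.3%). The 7 were 4 without WT hypoxia library 3 or AXL KO normoxia library 3 and 3 without AXL KO normoxia library 1. The fibronectin gene Fn1 was 656, 682 and 564 CPM, 2529, 889 and 834 CPM and 17222, 15226 and 19624 CPM, with every AXL KO normoxia library above all others (3.61 ± 0.47, adjusted p = 0.000606). Tnc, the tenascin C gene, showed the reverse, 9.68, 8.49 and 9 CPM, 28.3, 120.4 and 81.4 CPM and 0.41, 0.485 and 0.362 CPM (-7.51 ± 0.62, adjusted p = 8.77e-05). The count of 6 higher genes was 3 without AXL KO normoxia library 3, and that of 2 lower genes was 4 without WT hypoxia library 1 or 2 and 7 with library 1 alone. Among 29 collagen and matrix genes 13 were higher and 9 lower (44.8% and 31.0%, against 29.0% and 30.2% of all genes). Postn (periostin) was 7.94 ± 0.27 higher and the metalloproteinase inhibitor gene Timp3 8.32 ± 0.37 higher, while Col4a1, of basement membranes, was 185, 195 and 194 CPM, 531, 314 and 482 CPM and 3.31, 2.41 and 3.29 CPM (-7.20 ± 0.30, adjusted p = 6.36e-06).

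Cytokine and chemokine genes were higher at 8 of 24 and lower at 10 (33.3% and 41.7%, against 29.0% and 30.2% of all genes). Il33, an alarmin gene, was 1.18, 1.25 and 1.33 CPM in WT normoxia, 1.13, 1.31 and 0.836 in WT hypoxia and 451, 595 and 655 in AXL KO normoxia, close to 1 CPM in all WT libraries (9.03 ± 0.28, adjusted p = 2.97e-06). The cyclooxygenase-2 gene Ptgs2, kept in this list for its prostaglandin product, was 174, 147 and 203 CPM, 10320.2, 27784 and 19574 CPM and 77.1, 52.2 and 49.5 CPM. It rose in WT hypoxia and fell in AXL KO normoxia (-8.33 ± 0.49, adjusted p = 2.16e-05), as did the neutrophil attractant gene Cxcl3 (-6.82 ± 0.34). Interferon-stimulated genes split evenly, 9 of 23 higher and 9 lower (39.1% each, against 29.0% and 30.2% of all genes). The RNA sensor gene Ifih1 was 3.19 ± 0.27 higher and Rsad2 -4.13 ± 0.52 lower. Of 15 genes of MHC class I presentation 7 were higher and 1 lower (2 without WT hypoxia library 1 and with it alone), with the peptide transporter gene Tap1 at 4.14, 5.35 and 4.03 CPM, 1.31, 0.123 and 0.506 CPM and 21.1, 17.6 and 20.6 CPM (4.92 ± 0.68, adjusted p = 0.000803).

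Immediate early genes, which respond first to growth factors, were higher at 8 of 17 and lower at 6 (47.1% and 35.3%, against 29.0% and 30.2% of all genes). Egr1 was 52.9, 62.3 and 52 CPM, 15.1, 18.9 and 11.4 CPM and 412, 434 and 495 CPM, with opposite changes from WT normoxia (4.89 ± 0.23, adjusted p = 9.09e-06), and Ier3 showed the reverse, 169, 162 and 184 CPM, 1967, 1571 and 2051 CPM and 91.3, 105 and 95.7 CPM (-4.26 ± 0.17, adjusted p = 5.21e-06). YAP targets were mixed, 4 of 14 higher (8 with WT hypoxia library 1 alone, 2 without AXL KO normoxia library 1) and 3 lower (5 without WT hypoxia library 1). Of 10 ERBB receptor and ligand genes 4 were higher and 2 lower, the latter 4 with WT hypoxia library 1 alone and 1 or 0 without WT hypoxia library 2 or any AXL KO normoxia library. Egfr was 0.462, 0.312 and 0.401 CPM, 2.58, 11.4 and 4.53 CPM and 51.4, 45.6 and 52.3 CPM, above WT normoxia in both groups and highest in AXL KO normoxia (3.02 ± 0.51, adjusted p = 0.00197), and its ligand gene Areg was 3.41 ± 0.27 higher. Erbb2, whose activated form Neu drives these tumours, was 1406, 1279 and 1165 CPM in WT normoxia, 2555, 138 and 381 in WT hypoxia and 548, 521 and 678 in AXL KO normoxia. The WT hypoxia libraries ran on both sides of the other groups, and the test did not call it (-0.82 ± 0.90, adjusted p = 0.46).

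Genes at a shared level far from WT normoxia were named by rule: called on the same side of WT normoxia in both groups, within 2-fold of each other, and ranked by the smaller of the changes. The 8 highest on the upper side were Ly6c1, Fstl3, Pygl, Bsg, Ypel4, Hs3st3b1, Tcp11l2 and Afap1l2. Of these, Pygl was no longer held within 2-fold without WT hypoxia library 2 or any 1 AXL KO normoxia library. Bsg, which encodes the partner of lactate transporters, was 275, 290.0 and 313 CPM in WT normoxia, 2469, 1864 and 1753 in WT hypoxia and 1729.9, 2174 and 2820.0 in AXL KO normoxia. The high groups overlapped, 0.14 ± 0.22 apart (interval -0.37 to 0.66). Fstl3, a secreted activin antagonist gene, was 5.28, 4.25 and 5.01 CPM, 47.2, 35.2 and 35.6 CPM and 41.6, 52.6 and 64.6 CPM, also overlapping (0.43 ± 0.21). Of the 8, Afap1l2 alone was called between the groups (0.67 ± 0.14). The 8 on the lower side were Pole, Kif14, Espl1, Chek1, Chtf18, Gins1, Gtse1 and Clspn. Kif14, a cytokinesis kinesin gene, was 68.7, 69.4 and 72.5 CPM, 9.61, 7.74 and 9.16 CPM and 8.43, 11.6 and 8.69 CPM (0.12 ± 0.22). The checkpoint kinase gene Chek1 was 33, 32.4 and 34.5 CPM, 3.75, 6.73 and 3.74 CPM and 3.52, 4.8 and 3.85 CPM (-0.22 ± 0.31). The rule admits only genes within 2-fold between the groups. Small differences, overlap and missing calls among them are therefore no separate result.

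The 8 genes most in excess in AXL KO normoxia were Colec12, Mmp14, Setbp1, Gas6, Gpc4, Gdf6, Wtip and Anpep, and none reached 0.1 CPM in a WT library. Mmp14, a membrane metalloproteinase gene, was 183, 211 and 222 CPM in AXL KO normoxia and had no count in WT hypoxia, at least 8812-fold higher. The scavenger receptor gene Colec12 was at least 9139.9-fold higher and the glypican gene Gpc4 at least 4603-fold. Anpep, an aminopeptidase gene with 1 count in WT hypoxia, had a ratio of 28170 (95% counting interval 5056 to 1113000). The 8 most in deficit were Slco4a1, Gpr149, Cdkn2b, Cdkn2a, Prss35, Cyp2d22, 3830403N18Rik and Adam22. Cyp2d22 was 21.7, 23.3 and 16.7 CPM and 58.4, 19.1 and 29 CPM in the WT groups and had no count in AXL KO normoxia, at least 1955-fold lower than WT hypoxia. Adam22, an adhesion protein gene, was 275, 272 and 250.1 CPM, 436, 457 and 537 CPM and 0.0931, 0.018 and 0 CPM, on in every WT library and near 0 in the knockout.

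Genes that left WT normoxia in opposite directions were ranked by the smaller change. The 6 that rose in AXL KO normoxia and fell in WT hypoxia included Tspan15, Pcdh19, Vcam1, Klf15 and Steap4. The adhesion receptor gene Vcam1 was 1.48, 1.56 and 2.08 CPM, 0.117, 0.0986 and 0.088 CPM and 42.3, 59.5 and 51.2 CPM (8.94 ± 0.28, adjusted p = 2.95e-06), and the metalloreductase gene Steap4 7.46, 11.6 and 7.38 CPM, 1.13, 0.567 and 0.77 CPM and 640.4, 695 and 846 CPM (9.78 ± 0.32, adjusted p = 3.44e-06). The 6 of the reverse pattern were P2ry14, Rtl1, Tnn, Clca2, Ranbp3l and Tmod2. Clca2 was 7.17, 7.1 and 7.2 CPM in WT normoxia, 262, 501 and 385 in WT hypoxia and 0.0372, 0.0719 and 0.145 in AXL KO normoxia (-12.09 ± 0.48, adjusted p = 5.32e-06). Rtl1, an imprinted retrotransposon-derived gene, was 14.5, 27.7 and 17.1 CPM in WT hypoxia and had no count in AXL KO normoxia, at least 1074-fold lower. P2ry14 (1.15, 53.1 and 10.9 CPM in WT hypoxia), Ranbp3l and Tmod2 were uneven among the WT hypoxia libraries, lowest in library 1.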

How the data were processed

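The values are counts that the authors deposited, 1 per Ensembl gene and library. Per the submitters' processing notes they used FastQC 0.11.5, STAR 2.5.1b, featureCounts 1.4.6 and DESeq2 1.12.3 with GRCm38. Reads were counted with featureCounts 1.6.0, Ensembl release 93 and strand setting 2, per the file headers, so antisense reads were kept apart. Notes and headers name different featureCounts versions.

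From the deposited counts, 9 libraries (WT normoxia, WT hypoxia and AXL KO normoxia, 3 each) were scaled by TMM factors and filtered with filterByExpr in edgeR 4.0.16 (R 4.3.3), which left 16388 genes and removed 37844. Each comparison was fitted on its own 6 libraries (4 residual degrees of freedom), because WT hypoxia was known from earlier results to spread more than the other groups. The test was edgeR's robust quasi-likelihood test over all genes with Benjamini-Hochberg adjustment. The standard error is the size of the log2 fold change divided by the root of its F value. CPM use the TMM factors and list distances log2 CPM with a prior count of 2. With depths of 45297267 to 58775422 counts, fold changes against a group with no count are bounds that put the whole group at 3 counts, and such floors and counting intervals cover counting error only.

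The members, the 34 gene lists (600 genes) and the rules for named genes were chosen with earlier results of these data known. Named were Axl, any member of the HIF, cell cycle, repair and p53 lists, the 6 members of smallest p of each other list, the 8 genes of largest difference each way, the 8 each way that both groups share within 2-fold, and 6 each way of opposite change. Erbb2 and the markers of other cell types were listed with these rules, and Csf1r and Cd68 were singled out among them after their values were seen. Symbols of 54165 of 54232 genes came from GENCODE M21. The fit was tested on simulated data with known changes. Alternatives were other scalings (RLE, library size), filters and tools (DESeq2 1.42.0, limma 3.58.1), 1 fit over 9 or 12 libraries, a replicate block, a minimum fold of 2, and libraries left out. AXL KO hypoxia entered only the fit over 12 libraries. A few genes that these rules or lists name are not reported here by name or drawn gene by gene, but count in the totals.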

Additional observations from a re-analysis of the deposited data

How the results depend on the processing

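The 9702 genes called between AXL KO normoxia and WT hypoxia ran from 7638 to 11740 with each library left out in turn, and the 4145 genes within 2-fold from 3000 to 4720. Genes called in WT hypoxia against WT normoxia (7633) ran from 4797 to 10332 and those in AXL KO normoxia against WT normoxia (12777) from 12407 to 12877. A required fold of at least 2 left 4658, 2435 and 4806 calls in the 3 comparisons. With WT hypoxia libraries 2 and 3 left out, so that the lone sample is assumed to vary like the other group, the calls were 12190 between the groups and 12177 for WT hypoxia. RLE factors, no filter, DESeq2 and limma-voom gave 9735, 10218, 10185 and 9829 calls between the groups, and 1 fit over 9 or 12 libraries 11015 and 11797. Same-numbered replicates did not visibly deviate together (correlations from -0.06 to 0.09 in the 3 comparisons). Such correlations cannot show whether libraries were made in numbered sets, which the labels do not state. With the replicate block the counts were 8984, 6741 and 12697, and 3642 genes lay within 2-fold. Of the 187 genes named, 127 kept their direction and their side of the threshold between the groups under every alternative, 31 lost the call under at least 1, 17 gained it, and another 12, not called in the reported comparison, changed sign under at least 1. No named gene that was called changed sign under any alternative. At these depths genes with no count in a group give bounds only, and the spread of the WT hypoxia libraries limited the smaller differences.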
